A study of Mus musculus with 8 samples.

Results

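Microglia are the resident immune cells of the brain, and in the nucleus table of the P14 mouse visual cortex (VC) they were the 10871 nuclei, of 44021 in all, whose class name was Microglia. The name was given by the authors from clusters of the whole data set. A further 447 nuclei were called mitotic microglia (M-Microglia) and 912 were called perivascular macrophages (PVM), and these 2 classes were the comparison within each library. The table gives the library, the class, a place in a 2-dimensional embedding, the number of unique molecular identifiers (UMIs, which count RNA molecules), the number of detected genes and a mitochondrial fraction for each nucleus. The expression of single genes was not analysed here. The defining markers Cx3cr1, P2ry12 and Csf1r were therefore not examined in these nuclei, and the name stands as the authors gave it.

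Nuclei came from frozen VC of C57BL/6J mice, were stained for the neuronal protein NeuN, sorted as the NeuN-negative fraction and barcoded with the 10x Chromium kit. There were 8 libraries, 1 male and 1 female in each of 4 groups, and the tissue of 2 mice, alike in genotype and sex, was pooled for each. VGlut2 WT mice carried the floxed allele without cre (VGlut2 f/f), and VGlut2 cKO mice carried the same floxed alleles with a cre driven from the RORα locus (VGlut2 f/f;ROR acre), which removes the glutamate transporter from thalamic neurons. Ip3r2 WT and Ip3r2 KO mice had or lacked the type 2 IP3 receptor, a calcium channel of internal stores. The Ip3r2 knockout is not restricted to a cell type, and its controls could be non-littermates, whereas the VGlut2 controls were cre-negative littermates. A WT and a mutant sample were isolated, sorted and barcoded together in each of 4 procedures, so the libraries of a group also differ in procedure, and sex and procedure cannot be told apart within a group. The sources used here do not state that the samples of a procedure were of the same sex. Libraries held 4767 to 5920 nuclei. In 8 of 8 libraries the nuclei carried the same model, genotype and sex as the label of their sample.

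Microglia arise from yolk sac progenitors, settle in the brain before birth and divide locally there. They survey the tissue with motile processes, clear debris and take up synaptic material, and the second and following postnatal weeks are a time of synapse refinement in the mouse VC. Csf1r is the receptor on which their survival depends, Cx3cr1 is the receptor for the neuronal chemokine fractalkine, and P2ry12 is a receptor for adenine nucleotides that steers their processes. PVM are related macrophages that lie along vessels, outside the neural tissue proper.

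Over all libraries microglia ranked behind the astrocytes, whose 4 groups were joined, and they outnumbered them in 4 of 8 libraries. They had 1047 to 1715 nuclei in a library. They made up 23.98% of the nuclei in the male library of VGlut2 WT (95% Wilson interval, 22.9 to 25.1) and 28.97% in the male VGlut2 cKO library (27.8 to 30.1). In the female libraries of that model they were 26.4% in WT (25.3 to 27.6) and 26.3% in cKO (25.2 to 27.5). In the Ip3r2 model they were 27.8% in the male WT library (26.5 to 29.1) and 24.7% in the male KO library (23.6 to 25.8), but 19.5% in the female WT library (18.4 to 20.6) and 19.96% in the female KO library (18.9 to 21.0). The female Ip3r2 libraries were thus the lowest of the 8, with intervals below those of every other library, while WT and mutant libraries were interleaved. These intervals cover counting error only.

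The share of microglia varied more between libraries than counting nuclei would give. Its SD over the 8 libraries was 3.46 percentage points, against a binomial SD of 0.582 points, a ratio of 5.94. That ratio was 1st of 17 classes from the highest, before astrocytes at 4.56, and was 2.05 for PVM and 1.39 for M-Microglia. It grows with the number of nuclei in a class, and is given as a description.

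**Figure D1:**
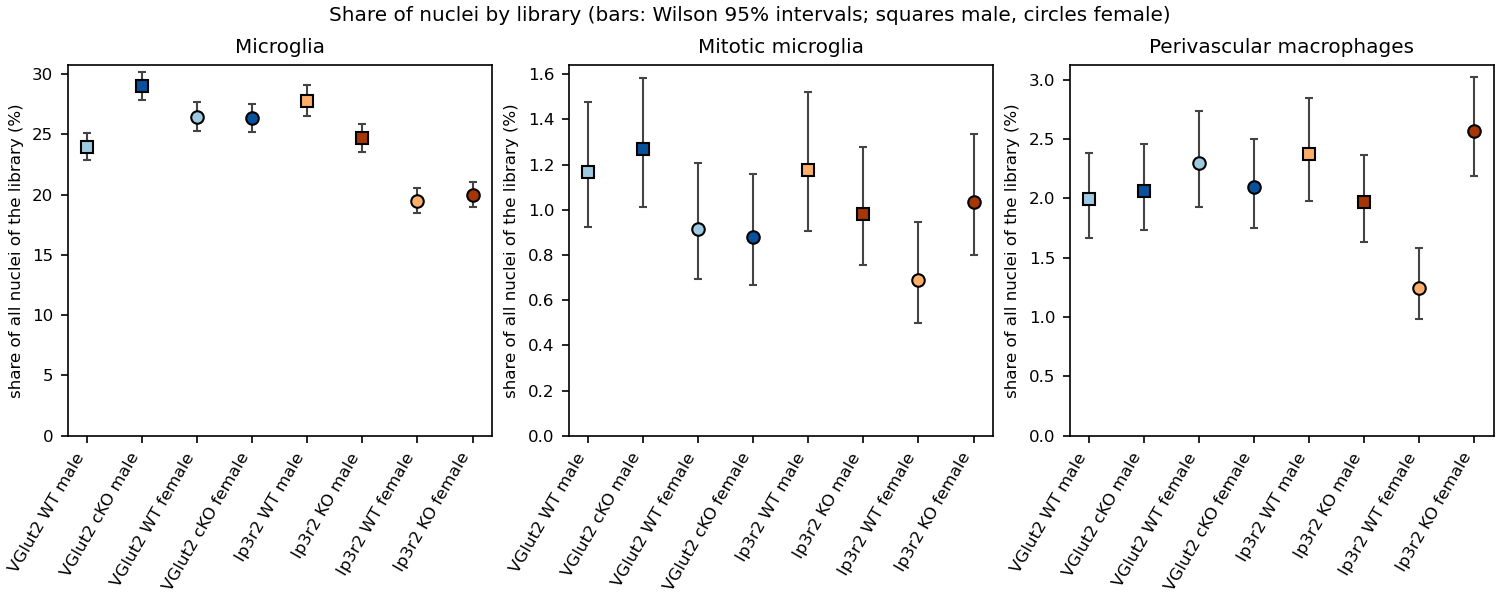
Share of all nuclei of a library (vertical axis, percent) taken by microglia, mitotic microglia and perivascular macrophages in the 8 libraries (horizontal axis). Symbols are single libraries, squares male and circles female, and bars are Wilson 95% intervals. Microglia lie between 19.5% and 28.97%, with both female Ip3r2 libraries lowest, and the PVM share of the female Ip3r2 WT library is lowest at 1.25% and that of the female Ip3r2 KO library highest at 2.57%.

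The first question was whether the frequency of microglia differs when thalamic neurons cannot load glutamate, or when the type 2 IP3 receptor is lost. In the VGlut2 model the odds of a nucleus being microglial were 1.13-fold in cKO relative to WT (95% interval 0.712 to 1.80, log2 difference 0.18 ± 0.31 SE, n = 2 libraries each, limma, adjusted p = 0.980). This mean joined a 1.29-fold higher value in males to a 0.994-fold value in females. In the Ip3r2 model the odds were 0.937-fold in KO (0.588 to 1.49, log2 difference -0.09 ± 0.31 SE, limma, adjusted p = 0.994), from 0.851-fold in males and 1.03-fold in females. In neither model did the male and female libraries move the same way, and the male differences went in opposite directions. The difference between the models was 0.28 on the log2 scale (-0.67 to 1.22, limma, adjusted p = 0.959).

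In that limma fit microglia did not pass in any of the 3 contrasts, nor did any other class: 0 of 17 classes (0%) were called in each, with 0 classes at an unadjusted p under 0.05 in the VGlut2 model, 1 in the Ip3r2 model and 1 for the difference between models. edgeR called 0 of 17 in each, with 0 at an unadjusted p under 0.05. The VGlut2 log2 difference of 0.18 became 0.086 without cKO replicate 1 and 0.087 without WT replicate 1, the male libraries, and 0.28 without either female library. The direction of the Ip3r2 difference turned on single libraries. Without Ip3r2 KO replicate 2, the female library, it was 0.10 on the log2 scale, and without Ip3r2 WT replicate 1, the male library, it was 0.24. Without Ip3r2 WT replicate 2, the female library, it was -0.43.

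The class named mitotic microglia was set against microglia. M-Microglia were 4.64% of microglia and M-Microglia together in the male library of VGlut2 WT (95% Wilson interval, 3.68 to 5.85) and 4.19% in the male cKO library (3.36 to 5.22). In the females of that model they were 3.34% in WT (2.54 to 4.39) and 3.23% in cKO (2.46 to 4.24). The Ip3r2 males had 4.06% in WT (3.14 to 5.23) and 3.83% in KO (2.94 to 4.96), and the Ip3r2 females 3.41% in WT (2.49 to 4.67) and 4.93% in KO (3.83 to 6.32). Mutant libraries were below WT in 3 of the 4 same-sex pairs and above it in the female Ip3r2 pair, and the intervals of each pair overlap.

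The mitotic odds were 0.931-fold in VGlut2 cKO relative to WT (95% interval 0.549 to 1.58, limma, adjusted p = 0.967) and 1.17-fold in Ip3r2 KO (0.691 to 1.99, limma, adjusted p = 0.939), with n = 2 libraries a group. Over the 8 within-lineage ratios of this fit, 0 of 8 (0%) were called in either model or for the difference between models, and 0 had an unadjusted p under 0.05. Without VGlut2 WT replicate 1, the male library, the VGlut2 log2 difference was 0.14 in place of -0.10, and leaving out VGlut2 cKO replicate 2 (female) gave 0.09. The Ip3r2 log2 difference of 0.23 became 0.039 without KO replicate 2 (female) and 0.10 without WT replicate 2 (female), and 0.42 and 0.36 without KO or WT replicate 1 (male).

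Microglia outnumbered PVM by 7.76 to 15.6 times, depending on the library. PVM were 7.67% of microglia and PVM in the male VGlut2 WT library, 6.64% in the male cKO, 7.99% in the female WT and 7.37% in the female cKO library. They were 7.86% in the male Ip3r2 WT and 7.37% in the male Ip3r2 KO library. The female Ip3r2 pair held both extremes, 6.01% in WT (Wilson 95% interval 4.76 to 7.57, 67 PVM beside 1047 microglia) and 11.4% in KO (9.77 to 13.3, 144 PVM beside 1118 microglia). The KO library was 2.00-fold its WT counterpart on the odds scale, whereas in the other 3 pairs the mutant was 0.856-fold, 0.917-fold and 0.933-fold the WT.

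The UMIs of PVM were most widely spread in this female Ip3r2 KO library. Of its PVM 8.33% had more than 2 times the median UMIs of their class, against 0.813% to 2.99% in the other 7 libraries, and their upper quartile of UMIs was 1.67 times the lower one, against 1.34 to 1.61. The wide spread was not limited to PVM: of 15 classes, 6 had their highest ratio of quartiles in this library and 8 their highest share of such nuclei, microglia included in both (1.497 and 1.16%). The part of this spread in the PVM count was not tested. Across both sexes the PVM odds were 1.37-fold in Ip3r2 KO (95% interval 0.798 to 2.35, limma, adjusted p = 0.590, n = 2) and 0.886-fold in VGlut2 cKO (0.516 to 1.52, limma, adjusted p = 0.967, n = 2). Without Ip3r2 KO replicate 2, the female library, the Ip3r2 log2 difference was 0.11 in place of 0.45, and without Ip3r2 KO replicate 1, the male library, it was 0.80. Without Ip3r2 WT replicate 2, the female library, it was 0.25. The difference between the models was -0.63 (-1.73 to 0.47, limma, adjusted p = 0.869).

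Microglial nuclei yielded little RNA. Their median UMI count was the lowest of the 17 classes in 8 of 8 libraries. It was 809 in the male VGlut2 WT library, 797 in the male cKO, 929 in the female WT and 1089.5 in the female cKO library. In the other model it was 1182 in the male WT, 1247 in the male KO, 1161 in the female WT and 1100.5 in the female KO library. The libraries of the Ip3r2 model all lay above those of the VGlut2 model. Model and procedure cannot be told apart here, and the highest library had 1.56 times the median of the lowest.

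Set against the mean level of the classes of the same library, microglia included, this median varied less. Over the 15 classes that reached 20 nuclei in each of the libraries, the microglial median was 0.557 ± 0.017 of the mean class level (geometric mean of class medians, SD, n = 8), from 0.527 in the female Ip3r2 KO to 0.579 in the female VGlut2 cKO library. The cKO libraries had 1.02-fold the relative UMIs of WT in both sexes, and over both the fold was 1.02 (95% interval 0.937 to 1.11, limma, adjusted p = 0.885, n = 2). In the Ip3r2 model the male KO library had 0.998-fold and the female 0.978-fold the WT level, and the fold over both was 0.988 (0.907 to 1.08, limma, adjusted p = 0.985, n = 2). In each contrast of this fit 0 of 15 classes (0%) were called in limma, with 1 at an unadjusted p under 0.05.

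Microglia also took a smaller part of the sequenced RNA than of the nuclei. They were 24.7% ± 3.46 of the nuclei of a library but 13.4% ± 2.45 of its UMIs (SD, n = 8), from 9.66% in the female Ip3r2 WT to 16.2% in the male Ip3r2 WT library. The share of nuclei was 1.72 to 2.02 times the share of UMIs.

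Many of the nuclei near the lower limit of the table were microglia. The poorest nuclei had 200 genes, among microglia as among all nuclei. Of the 569 nuclei with under 500 UMIs, 333 were microglia, which is 58.5% of these nuclei against 24.7% of all nuclei. Of the 232 nuclei with under 300 genes, 118 were microglia (50.9%). Within microglia the nuclei under 500 UMIs were 3.01% to 6.23% in the 4 VGlut2 libraries and 0.955% to 1.79% in the 4 Ip3r2 libraries, which did not overlap. The same held for PVM, with 3.25% to 5.04% in the VGlut2 and 0% to 1.77% in the Ip3r2 libraries. Astrocytes overlapped, with 0.187% to 0.384% and 0.078% to 0.506%. M-Microglia had 0% to 4% in the VGlut2 libraries and 0% in each Ip3r2 library, so they met at 0%. The gap between the models was thus shared by PVM and not particular to microglia, but not every class had it. How many microglial nuclei fell below the limit of genes, and whether their part differed between the models, was not analysed here.

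The spread of UMIs among the microglia of a library was on average narrower than in M-Microglia and PVM. The upper quartile was 1.32 to 1.50 times the lower one, and 0.645% to 1.16% of the nuclei had more than 2 times the median. The SD of log2 UMIs was 0.428 ± 0.030 in microglia, 0.479 ± 0.071 in M-Microglia and 0.487 ± 0.043 in PVM (SD over 8 libraries). In oligodendrocyte precursor cells it was 0.435 ± 0.051, so such a spread was not particular to microglia. These are properties of nuclei that had already passed the removal of doublets by the authors.

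Microglia were then set against M-Microglia and PVM of the same library, which share its depth. The class names mitotic and perivascular also stand as deposited, with no marker gene examined. Microglia had 0.856-fold the median UMIs of M-Microglia, lower in 8 of 8 libraries (exact sign-flip permutation test, p = 0.00781, the smallest 8 libraries can give, adjusted p = 0.0125 over 8 comparisons). The ratio was 0.862 and 0.846 in the male VGlut2 WT and cKO libraries and 0.943 and 0.930 in the female ones. It was 0.884 and 0.904 in the male Ip3r2 WT and KO libraries and 0.756 and 0.747 in the female ones. The ratio was thus close within each same-sex pair and lowest in the female Ip3r2 pair. The sign-flip test takes the 8 libraries as independent, although a WT and a mutant sample shared each procedure. Its p-values, here and below, may therefore be too small.

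Against PVM, microglia had 0.893-fold the median UMIs, again lower in 8 of 8 libraries (exact sign-flip permutation test, p = 0.00781, adjusted p = 0.0125). The ratio ran from 0.787 in the female Ip3r2 KO to 0.980 in the female VGlut2 cKO library. Detected genes moved likewise. Microglia had a median of 601 to 874 genes, 0.870-fold that of M-Microglia (lower in 8 of 8 libraries, exact permutation test, p = 0.00781, adjusted p = 0.0125) and 0.934-fold that of PVM (lower in 7 of 8, exact permutation test, p = 0.0156, adjusted p = 0.0208). In the female VGlut2 cKO library the medians of microglia and PVM were nearly equal, 783 and 782 genes.

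Genes rise with UMIs, so the classes were also compared at equal UMIs. Within each class and library a line of log2 genes on log2 UMIs was fitted over the nuclei with 500 to 2000 UMIs and read at 1000 UMIs. Microglia showed 718 genes at 1000 UMIs in the male VGlut2 WT library, 719 in the male cKO, 728 in the female WT and 727 in the female cKO library. The Ip3r2 libraries showed 733 in the male WT, 735 in the male KO, 721 in the female WT and 714 in the female KO library. The highest library was 1.03 times the lowest, against 1.56 times for the median UMIs. The slope was 0.797 ± 0.011 (SD, n = 8), so genes rose less than in proportion to UMIs.

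At equal UMIs the order of microglia and PVM was turned around. Microglia had 1.03-fold the genes of PVM, higher in 8 of 8 libraries (724 ± 7.35 against 706 ± 4.78 genes, SD, exact sign-flip permutation test, p = 0.00781, adjusted p = 0.0125). They had 0.988-fold the genes of M-Microglia, lower in 8 of 8 libraries (733 ± 4.22 genes in M-Microglia, exact sign-flip permutation test, p = 0.00781, adjusted p = 0.0125). Both gaps are small, but each was larger than the spread of the within-library differences: 0.037 ± 0.008 and -0.018 ± 0.011 on the log2 scale (SD, n = 8). Among the 11 classes that had 20 or more such nuclei in each library, 8 were below microglia in every library. The classes were made from the expression of these same nuclei, and a line through 32 to 73 M-Microglia is less certain than one through 1018 to 1644 microglia.

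The same value was compared by genotype. Microglial genes at 1000 UMIs were 1.001-fold in VGlut2 cKO relative to WT (95% interval 0.972 to 1.03, limma, adjusted p = 0.980, n = 2) and 0.997-fold in Ip3r2 KO (0.968 to 1.03, limma, adjusted p = 0.899, n = 2). Of 11 classes 0 (0%) were called in limma in each model and for the difference between models, with 0 classes in the VGlut2 model, 1 in the Ip3r2 model and 0 for the difference at an unadjusted p under 0.05. With the median of nuclei of 800 to 1200 UMIs in place of the line, the log2 difference was 0.038 in place of 0.0014 in the VGlut2 model and 0.019 in place of -0.0049 in the Ip3r2 model, and neither passed. Which genes are expressed is not part of this measure.

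The deposited mitochondrial fraction is the part of the UMIs of a nucleus that falls on a set of genes not given in the sources used here. In microglia it was 4.37% of the UMIs in the male library of VGlut2 WT (95% Wilson interval, 4.33 to 4.41) and 4.43% in the male cKO library (4.40 to 4.47), 4.35% in the female WT (4.31 to 4.38) and 4.26% in the female cKO library (4.23 to 4.29). In the Ip3r2 model it was 4.30% in the male WT (4.27 to 4.33), 4.21% in the male KO (4.18 to 4.24), 4.08% in the female WT (4.05 to 4.12) and 4.09% in the female KO library (4.06 to 4.13). The female Ip3r2 libraries, which had the lowest share of microglia, also had the lowest mitochondrial share in them.

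The fraction varied more between nuclei than binomial counting would give. No nucleus was at 0, either among the 10871 microglia or among all 44021 nuclei, and since the gene set is not known, the fraction is called mitochondrial only as its deposited name has it. In microglia the values of single nuclei ran from 0.958% to 8.50%, and their variance was 1.33 ± 0.087 times that of binomial counting (SD, n = 8). It fell with depth: with the microglia of each library ranked by UMIs and cut into 4 equal bins, it went, from the bin with the fewest UMIs to that with the most, from 4.47% ± 0.122 to 4.09% ± 0.155 (SD, n = 8), lower in the deepest bin in 8 of 8 libraries. Across the nuclei of a library the correlation of the fraction with log2 UMIs was -0.061 to -0.268. Both measures share the UMI count, and nuclei are not replicates.

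By genotype the mitochondrial odds in microglia were 0.997-fold in VGlut2 cKO (95% interval 0.935 to 1.06, limma, adjusted p = 0.973, n = 2) and 0.990-fold in Ip3r2 KO (0.929 to 1.05, limma, adjusted p = 0.954, n = 2). In each contrast 0 of 15 classes (0%) were called, and 0 had an unadjusted p under 0.05 in limma. All 15 classes received the same SE in this fit, so the interval is not the spread of microglia alone. Against M-Microglia of the same library the microglial odds were 1.02-fold, higher in 6 of 8 libraries (exact sign-flip permutation test, p = 0.0312, adjusted p = 0.0357). This passed in the full set, but the adjusted p was 0.0714 when any of 6 libraries was left out, namely every library except VGlut2 cKO replicate 2 and Ip3r2 WT replicate 2, both female. The UMIs of M-Microglia were higher in all 8 libraries, and the part of depth in this gap was not tested. Against PVM the odds were 1.01-fold, higher in 7 of 8 libraries (exact sign-flip permutation test, p = 0.461, adjusted p = 0.461). Without Ip3r2 WT replicate 2, the female library and the exception, the log2 difference was 0.026 in place of 0.012, with an adjusted p of 0.0208.

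**Figure D2:**
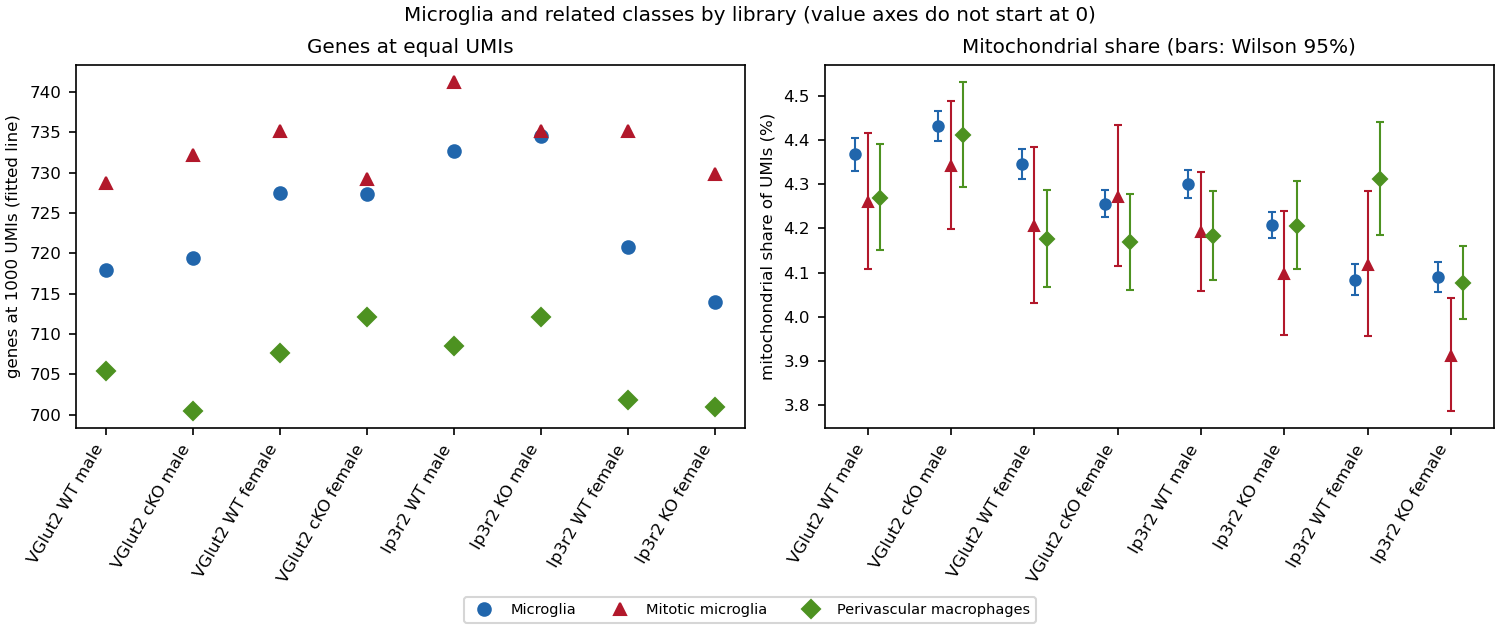
Genes at 1000 UMIs from the fitted line (left, number of genes) and mitochondrial share of UMIs with Wilson 95% intervals (right, percent) in microglia (circles), mitotic microglia (triangles) and perivascular macrophages (diamonds) of the 8 libraries. The value axes do not start at 0. In the left panel microglia lie above PVM and below mitotic microglia in each library, and in the right panel the classes overlap between 3.91% and 4.43%.

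The deposited embedding (UMAP) places nuclei with similar corrected expression near each other, and its axes have no unit. Microglia formed a territory of their own there: of the 15 nearest neighbours of a microglial nucleus 99.1% were microglia, 0.833% M-Microglia and 0.027% PVM, and 93.9% of the nuclei had microglia only as neighbours. M-Microglia bordered on them, with 21.6% of their neighbours being microglia and 77.9% M-Microglia. PVM lay apart, with 99.9% of their neighbours being PVM and 0.124% microglia. Since the classes were drawn from the same expression values, this describes the naming and does not test it.

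Inside the microglial territory the horizontal axis followed RNA content. The correlation of UMAP axis 1 with log2 UMIs was -0.716 over all 10871 nuclei and -0.593 to -0.750 within the libraries. Cut into 4 equal bins along this axis, the nuclei had a median of 1314, 1092, 949 and 755 UMIs and a mitochondrial share of 4.06%, 4.24%, 4.37% and 4.53%. Nuclei of the VGlut2 libraries were 47.7%, 51.4%, 56.6% and 65.9% of these bins. The bins are of equal size, so the mean of these values is the part of the VGlut2 libraries in all microglia.

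The vertical axis separated the sexes of the VGlut2 model. The median of UMAP axis 2 was 2.14 in the male VGlut2 WT and 2.15 in the male cKO library, but 3.55 in the female WT and 3.52 in the female cKO library. The female pair was thus 1.39 units above the male pair, while WT and cKO of a pair differed by 0.007 units in males and by -0.035 units in females. The quartiles of all microglia were 1.65 units apart on this axis. In the Ip3r2 model the medians were 2.86 and 2.90 in male WT and KO and 2.72 and 2.94 in female WT and KO, and sexes and genotypes overlapped. The correlation of this axis with log2 UMIs was 0.093 over all microglia and -0.141 to 0.070 within libraries. In the VGlut2 model the female pair also had the higher median UMIs, 929 and 1089.5 against 809 and 797 in males. The part of depth in the gap between the pairs was not tested.

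Nearest neighbours gave the same picture. If libraries were mixed evenly within the microglia, a nucleus would have neighbours from its own library in proportion to that library's part of all microglia. In the VGlut2 libraries neighbours from the same library were 1.398 to 1.55 times that proportion, and neighbours from the other library of the same sex and model were 1.31 to 1.54 times theirs. In the Ip3r2 libraries these ratios were 1.05 to 1.16 and 1.01 to 1.09. The separation on axis 2 in the VGlut2 model was shared by WT and cKO of the same sex. Sex and procedure cannot be told apart in it. In the female VGlut2 cKO library, however, the ratio was 1.54 for its own nuclei and 1.31 for those of its WT partner. On axis 1 the medians were 12.1 in the female cKO and 12.9 in the female WT library.

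**Figure D3:**
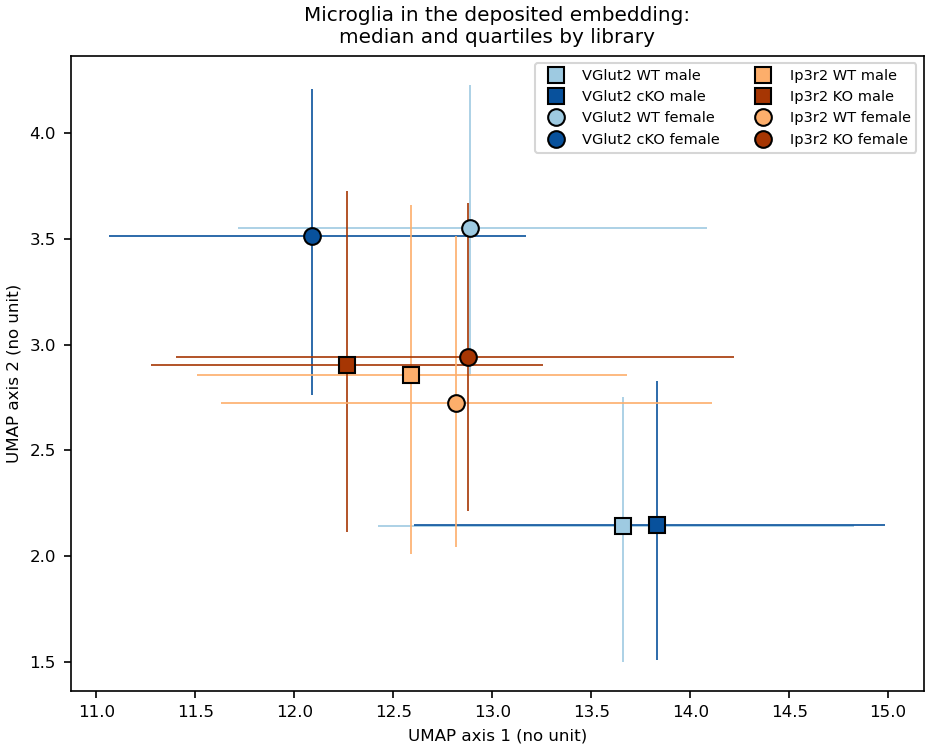
Position of microglia in the deposited UMAP embedding (axis 1 horizontal, axis 2 vertical, no unit). Symbols are library medians, squares male and circles female, and bars run from the lower to the upper quartile over nuclei. The male VGlut2 pair sits at 2.14 and 2.15 on axis 2, the female VGlut2 pair at 3.55 and 3.52, and the Ip3r2 libraries lie between them.

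Libraries shared few cell barcodes. Over all classes 475 nuclei had a barcode sequence that also occurred in another library, and 122 of them were microglia (1.12% of microglia). Of the 237 barcodes concerned, 106 included a microglial nucleus and 16 joined microglia to microglia. Leaving these nuclei out changed neither the direction nor the call of any microglial comparison above.

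**Figure D4:**
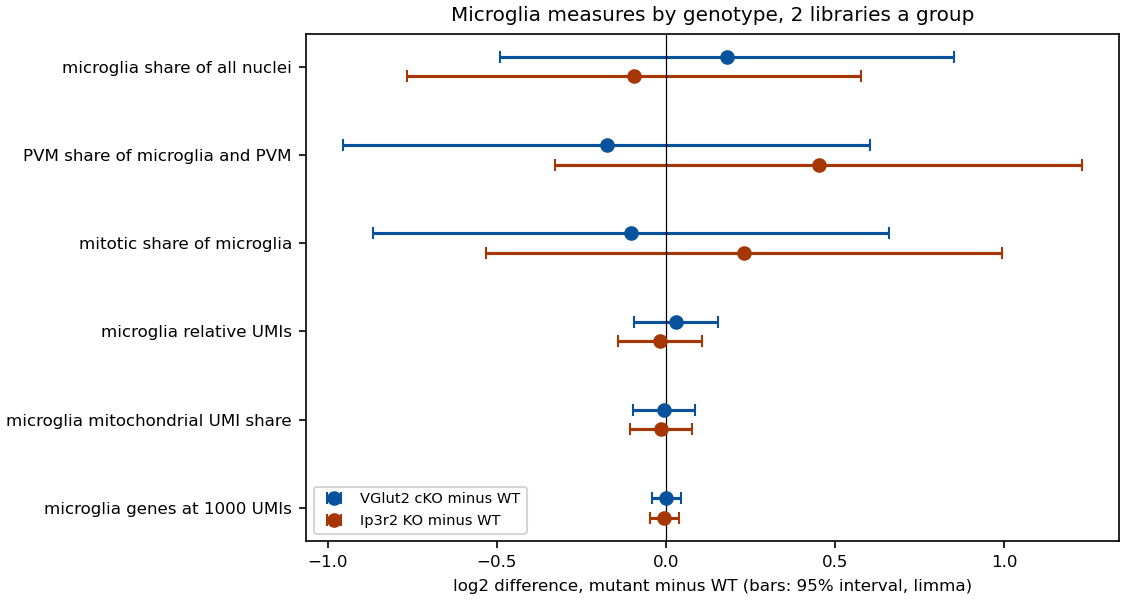
Log2 difference between mutant and WT (horizontal axis) for 6 measures of microglia, in the VGlut2 model (blue) and the Ip3r2 model (brown), with 2 libraries a group. Points are limma estimates and bars are 95% intervals; each interval includes 0. The intervals of the counts of nuclei, such as -0.49 to 0.85 for the microglial share in the VGlut2 model, are far wider than those of genes at 1000 UMIs.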

How the data were processed

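NeuN-negative nuclei of 8 libraries were analysed from the authors' table, 1 line per nucleus. By the study's methods, the authors aligned reads to mm10 with Cell Ranger, discarded barcodes with few genes, removed doublets with Scrublet in each sample, corrected batches with Scanorama and clustered with Leiden in Scanpy. UMIs and detected genes were deposited as counts, without normalization. The mitochondrial value was deposited as a fraction, although its header reads percent; multiplied by the UMIs it was whole within 0.001 in 44021 of 44021 nuclei. The embedding coordinates were deposited as a score without unit. Groups and sex came from the labels, and replicate 1 is the male and replicate 2 the female library. Each pools 2 mice, so the spread between libraries holds animals, sex and procedure.

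The 4 astrocyte groups were joined, leaving 17 classes. For each library, log2 odds of nuclei (0.5 added), pooled mitochondrial odds (0.5 added to each count), log2 median UMIs relative to the mean of 15 classes, and genes at 1000 UMIs were computed, and mutants were compared with WT in limma (version 3.58.1, R version 4.3.3) over all classes, or over 8 within-lineage ratios. All 8 libraries entered 1 fit without a term for sex, so the intervals do not use the pairing of same-sex libraries. Over the classes, deviations of same-sex libraries correlated at 0.54 to 0.92 in the VGlut2 model and 0.19 to 0.50 in the Ip3r2 model. These correlations cover the share of nuclei, the mitochondrial share and relative UMIs. Benjamini-Hochberg adjustment was made over the classes or ratios of a fit, with a threshold of 0.05. With 2 libraries against 2, no exact permutation p can fall below 0.333. Classes were compared within libraries by exact sign flips, which took the 8 libraries as independent although they came from 4 procedures. All tests were two-sided. Only the limma fit of the shares of nuclei and the sign-flip test were tried on simulated data, with an assumed spread. The other limma fits were not. Nuclei could not be thinned to equal UMIs, since values per gene were not analysed here. Alternatives were another pseudocount (1), denominator, summary, UMI window (800 to 1200), a minimum of 500 UMIs, edgeR (version 4.0.16), a block for same-sex libraries and leaving out each library. The members, measures and tests were chosen with earlier results of these data known. M-Microglia and PVM were set beside microglia within libraries, and the genotype comparisons are given for microglia and their ratios to these classes.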

Additional observations from a re-analysis of the deposited data

Results flagged for a closer look

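The relative UMIs of microglia were marked because both same-sex pairs moved up in the VGlut2 model and both moved down in the Ip3r2 model. On the log2 scale the gap between these 2 effects (VGlut2 less Ip3r2) was 0.047 (95% interval -0.128 to 0.222, limma, adjusted p = 0.926, n = 2 libraries a group). Genes at 1000 UMIs were marked because the mutant was above WT in both male pairs and below it in both female pairs. The log2 differences were 0.0029 (VGlut2) and 0.0038 (Ip3r2) in males, and -0.00017 (VGlut2) and -0.014 (Ip3r2) in females. The female VGlut2 pair was thus nearly equal. The male minus female difference was 0.010 on the log2 scale and was not tested.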

How the results depend on the processing

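Of 299 alternative values for 26 results, 269 kept their direction and side of the threshold, 23 turned direction, 6 fell below the threshold and 1 passed it. In 68 of the 299 the estimate could not move (a left-out library of the other model, the same-sex block, or a minimum of 500 UMIs where the line starts there), which leaves 201 of 231 recomputed values. None of the 18 genotype differences passed in the reported limma fits. Apart from left-out libraries, 1 value turned: Ip3r2 genes at 1000 UMIs, 0.019 with nuclei of 800 to 1200 UMIs, where the VGlut2 value was 0.038. The same-sex replicate block changed no call (VGlut2 microglial share 0.18, adjusted p = 0.976, limma). Leaving out each library gave these log2 ranges. For the microglial share they were 0.086 to 0.28 in the VGlut2 model, -0.43 to 0.24 in the Ip3r2 model and -0.059 to 0.61 for the difference between models. For the mitotic share they were -0.35 to 0.14 (VGlut2) and 0.039 to 0.42 (Ip3r2). For relative UMIs they were -0.067 to 0.031 (Ip3r2) and -0.0014 to 0.096 (difference). For genes at 1000 UMIs they were -0.0082 to 0.011 (VGlut2), -0.025 to 0.016 (Ip3r2) and -0.014 to 0.027 (difference). For the mitochondrial share they were -0.035 to 0.026 (VGlut2), -0.054 to 0.024 (Ip3r2) and -0.028 to 0.049 (difference), and within libraries 0.025 to 0.037 against M-Microglia and 0.0053 to 0.026 against PVM. The cause was not tested. A group left with 1 library was assumed to vary like the others. Leaving out shared barcodes, chosen after seeing the data, changed no call. With 2 libraries a group, the intervals of shares are wide, and differences within them were not detectable here.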
